A study of Mus musculus with 18 samples.

Results

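Cathepsins are proteases of the endosome and lysosome, most of them cysteine proteases that are made as inactive precursors and cut to their active form. Cystatins and the Ctla2 proteins are small inhibitors that occupy the active site of cysteine cathepsins. In cytotoxic T cells cathepsin C removes the dipeptide that keeps granzymes inactive, and cystatin F, the product of Cst7, is an inhibitor of cathepsin C that is itself routed to the endolysosome. The genes described here are 6 proteases (Ctsc, Ctsl, Ctsw, Ctsb, Ctss and Ctsd) and 4 inhibitors (Cst7, Ctla2a, Ctla2b and Cst3), chosen by gene symbol. All 10 were among the 18194 genes with a symbol of their own on the array, and all 10 were tested. They have 18 probe sets, of which 17 carry 1 symbol and 1 is annotated to both Ctla2a and Ctla2b.

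Expression was measured on 18 Affymetrix mouse arrays of splenic CD8 T cells from F5 mice, whose T cells carry a transgenic receptor, with C57Bl/6 as the genotype on the labels of all groups. Memory cells, named TIM in the labels, came from F5 mice given repeated immunisations with NP68 peptide and were analysed on day 45. Memory cells cultured for 20 hours were on 8 arrays, 2 each for IL-4 plus IL-7, IL-4, IL-7 and plain medium, and ex vivo memory cells were on 4. Naive F5 cells cultured for 20 hours were on 4 arrays, 2 each for IL-4 plus IL-7 and for IL-7, and ex vivo naive cells were on 2. IL-4 was used at 20 ng/mL and IL-7 at 10 ng/mL. The cell type entry of the naive arrays contains both the word naive and the word memory, so their titles, which read naive, were followed. The titles call only the ex vivo arrays biological replicates, and no label says that cultured replicates came from separate mice, so the p-values rest on array-to-array spread, which may be technical.

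Values are log2 RMA values, a background-corrected, quantile-normalised summary of each probe set. A gene is represented by its probe set with the highest mean. Changes are differences of group means in log2 units with the standard error (SE) of a limma fit over all 18 arrays, and they were called at an adjusted p (Benjamini-Hochberg over 13770 genes) under 0.05. Cd8a lay between 11.86 and 13.22. All 7 CD8 T cell markers on the array were above the filter value of 4.06 on every array. Of 10 macrophage and myeloid markers, 5 were also above it on every array, among them Lst1 (6.79 to 8.68). Itgam was the 1 myeloid marker above it on none. Cd4 lay between 4.55 and 5.30. Of the memory cells in medium, replicate 2 resembled replicate 2 of the ex vivo memory cells (r = 0.995) more closely than its own partner (r = 0.956). Replicates 1 and 2 of naive cells with IL-4 and IL-7 each matched a naive array with IL-7 best (r = 0.978 and 0.989). The first of these is the lowest best match of any array. Memory arrays with cytokines also had their best match in another group (r = 0.993 to 0.996). Where leaving out medium replicate 2 changes a call of the 10 genes, or moves a value printed for 1 of them by over 1.5 times, both results are given. In these bulk samples, fewer cells of a type and less RNA per cell cannot be told apart.

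**Figure D1:**
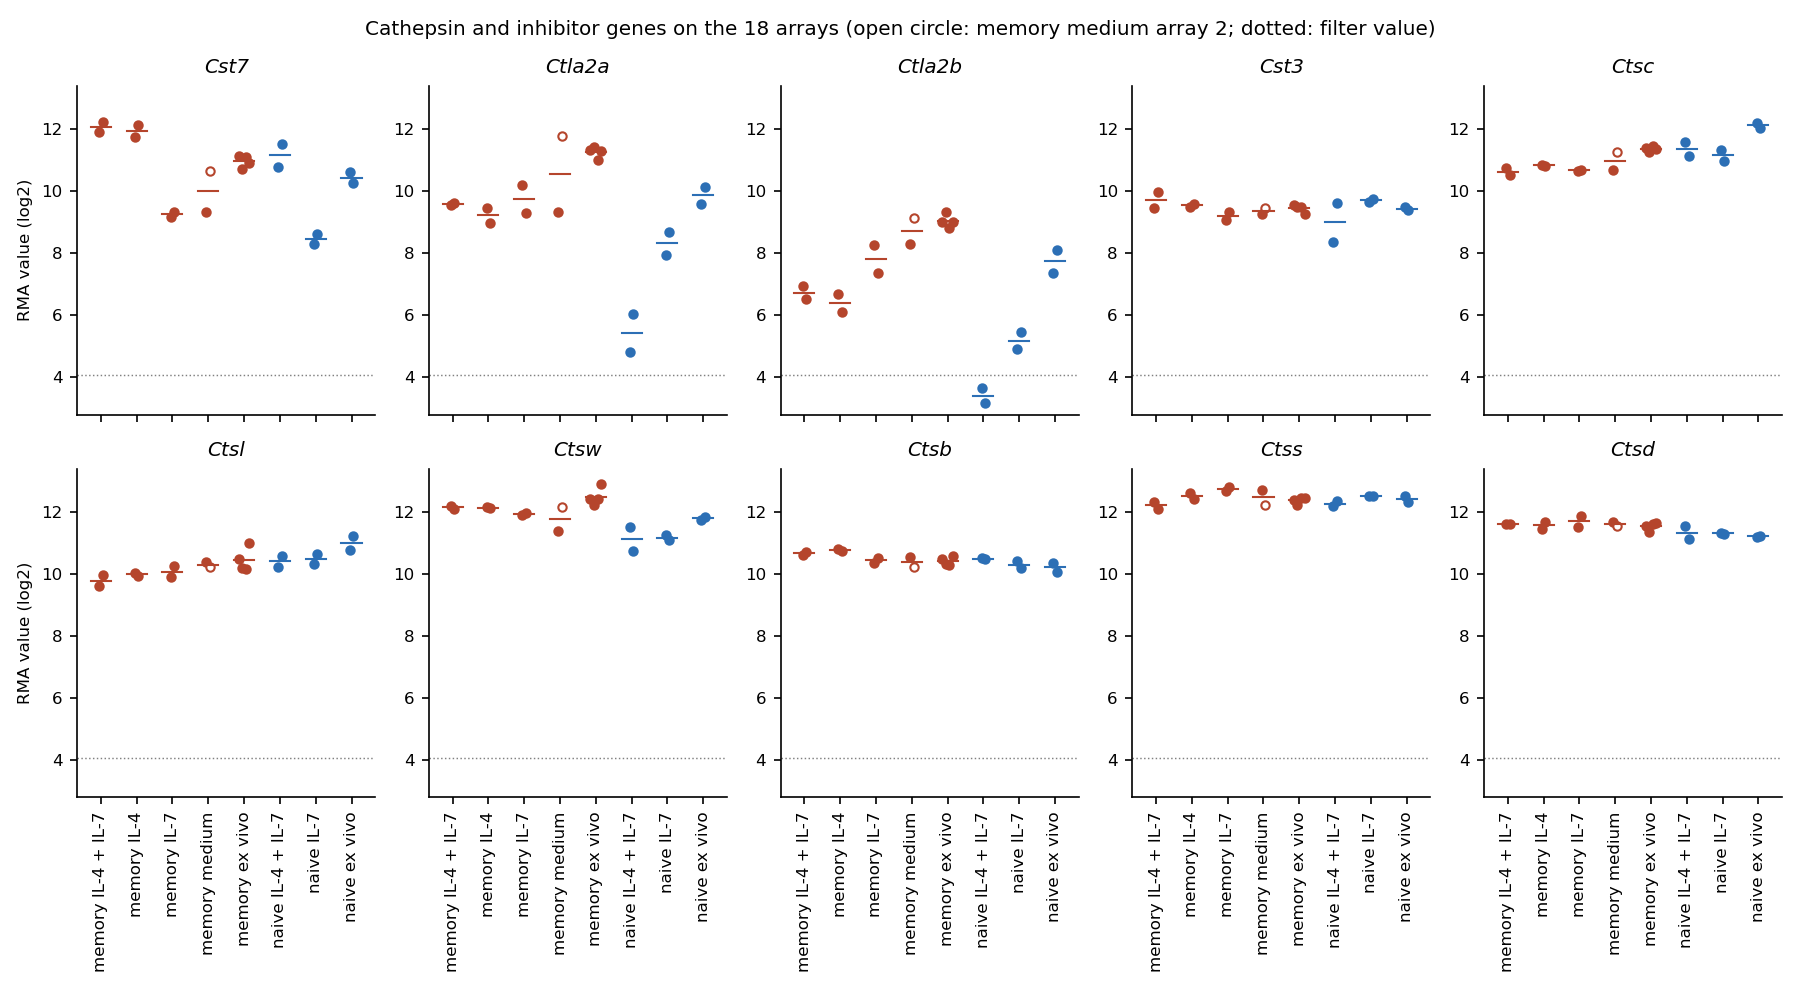
RMA values (log2) of the 10 genes on every array, by group, with memory cells in red, naive cells in blue and a bar at each group mean. The 3 inhibitors Cst7, Ctla2a and Ctla2b moved across groups over several log2 units, whereas the panels of Ctss, Ctsd and Ctsb are nearly level.

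The genes differed widely in how far their group means spread. The distance between the highest and the lowest of the 8 group means was 5.83 for Ctla2a, 5.63 for Ctla2b and 3.61 for Cst7, which placed these 3 inhibitors at percentiles 99.9, 99.8 and 99.1 of all genes tested. It was 1.49 for Ctsc, 1.36 for Ctsw and 1.21 for Ctsl. Cst3 (0.71), Ctsb (0.58), Ctss (0.53) and Ctsd (0.49) lay below the median distance of all genes, 0.72.

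Promoter windows of the 3 inhibitors with the widest spread are shown. Those of Ctla2a and Ctla2b are near copies of each other, and that of Cst7 is not. Any link between these sequences and the expression changes was not tested. The windows are RefSeq windows of assembly GRCm38.p6 from 250 bases before to 50 bases after an annotated start. They lie at chr13:60936576-60936875 (minus strand) for Ctla2a, chr13:60897398-60897697 (minus strand) for Ctla2b and chr2:150570165-150570464 (plus strand) for Cst7. The Ctla2b window lies wholly inside the annotated span of that gene, 60895351 to 60897934, so it does not cover the outermost start. The windows of Ctla2a and Cst7 do cover the outermost start of their genes. Capitals mark the longest run that the Ctla2a and Ctla2b windows share.
Ctla2a: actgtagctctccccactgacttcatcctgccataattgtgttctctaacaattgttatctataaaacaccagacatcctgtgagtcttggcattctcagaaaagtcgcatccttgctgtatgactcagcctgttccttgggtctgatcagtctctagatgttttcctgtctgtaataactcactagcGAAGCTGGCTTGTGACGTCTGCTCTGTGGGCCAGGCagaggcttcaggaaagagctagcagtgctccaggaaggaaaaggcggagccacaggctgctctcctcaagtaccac
Ctla2b: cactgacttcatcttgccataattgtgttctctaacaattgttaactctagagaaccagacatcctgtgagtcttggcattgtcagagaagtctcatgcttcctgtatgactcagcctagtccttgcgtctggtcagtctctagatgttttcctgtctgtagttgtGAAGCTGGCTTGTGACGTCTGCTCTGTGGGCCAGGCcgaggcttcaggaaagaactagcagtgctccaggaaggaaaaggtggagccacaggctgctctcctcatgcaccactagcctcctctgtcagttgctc
Cst7: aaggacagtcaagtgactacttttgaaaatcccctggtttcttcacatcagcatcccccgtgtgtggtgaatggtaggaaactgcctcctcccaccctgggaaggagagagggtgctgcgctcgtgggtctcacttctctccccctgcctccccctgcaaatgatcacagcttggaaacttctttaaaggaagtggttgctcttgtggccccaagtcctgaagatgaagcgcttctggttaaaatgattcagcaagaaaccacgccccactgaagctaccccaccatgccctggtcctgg
The shared run is 36 bases long, and 256 of 278 aligned bases (92.1%) of the Ctla2a and Ctla2b windows were identical. The same alignment of the Cst7 and Ctla2b windows gave 73.2%, and the windows of the other genes against Ctla2b gave between 68.0 and 75.4%. Of the 10 genes, 8 had a window in the table (9 windows, 2 of them for Ctla2a). Searched on both strands, the letters TTC and GAA with any 4 bases between them were in 0 of the 9 windows and in 6.95% of all 32851 promoter windows. TTCNNNGAA, with 3 bases between, was in both Ctla2a windows and in that of Ctsc, against 8.3% of all windows. The 2 Ctla2a windows overlap and hold the motif at the same genomic site. GAAA, any 2 bases and GAAA were found in the Ctss window (3.44% of all windows), CACGTG in those of Ctsd and Ctsl (7.15%), and AGGTGTGA in none (1.28%). None of these motifs contains another.

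IL-4 was followed by a large increase of Cst7, which encodes cystatin F, in both memory and naive cells. Cst7 had 11.92 and 12.23 in memory cells with IL-4 and IL-7, against 9.18 and 9.35 in memory cells with IL-7. It had 11.75 and 12.13 in memory cells with IL-4, against 9.33 and 10.67 in memory cells in medium. It had 10.80 and 11.53 in naive cells with IL-4 and IL-7, against 8.31 and 8.62 in naive cells with IL-7. In each pair both arrays with IL-4 lay above both arrays without it, as groups without overlap did for 55.8, 34.3 and 36.3% of all genes tested in these comparisons. Cst7 rose by 2.81 (SE 0.35, 7.03-fold, limma adjusted p = 0.000595) when IL-4 was added to IL-7 in memory cells, by 1.94 (SE 0.35, 3.83-fold, adjusted p = 0.00999) for IL-4 against medium, and by 2.70 (SE 0.35, 6.48-fold, adjusted p = 0.000804) in naive cells. Without medium replicate 2 the rise over medium was 2.61 (adjusted p = 0.000278), and without medium replicate 1 it was 1.27 (adjusted p = 0.00954). It no longer passed without either IL-4 array, at 2.12 (adjusted p = 0.0583) without replicate 1 and 1.75 (adjusted p = 0.122) without replicate 2. The rises in memory and naive cells with IL-7 differed by 0.12, with a 95% interval of -0.94 to 1.18 (adjusted p = 0.944).

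The levels of Cst7 ex vivo lay between those with and without IL-4. The ex vivo arrays had 11.14, 10.73, 11.10 and 10.91 in memory cells and 10.63 and 10.25 in naive cells. By group mean the order from high to low was memory with both cytokines, memory with IL-4, naive with both, memory ex vivo, naive ex vivo, memory in medium, memory with IL-7 and naive with IL-7. The arrays of memory with both and memory with IL-4 overlapped, as did those of naive with both and memory ex vivo, and the 2 medium arrays lay on either side of both naive ex vivo arrays, the lower one within the range of memory with IL-7. The gene outside the list whose 8 group means followed Cst7 most closely among all genes tested was Gzma, which encodes granzyme A (Pearson r = 0.968, over 8 groups of the same 18 arrays).

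Ctla2b and Ctla2a, whose products resemble the propeptide of cathepsin L and of which Ctla2a is known in mouse to inhibit that enzyme, both fell with IL-4 in naive cells. Ctla2a had 4.83 and 6.04 in naive cells with IL-4 and IL-7, against 7.94 and 8.70 in naive cells with IL-7. Ctla2b had 3.66 and 3.17 in naive cells with IL-4 and IL-7, against 4.91 and 5.45 in naive cells with IL-7. Neither pair of groups overlapped, which held for 36.3% of all genes tested. In naive cells Ctla2a fell by 2.88 (SE 0.59, 7.38-fold, limma adjusted p = 0.0322) and Ctla2b fell by 1.77 (SE 0.36, 3.41-fold, adjusted p = 0.0323). Both Ctla2b arrays with IL-4 were below the filter value of 4.06, which leaves the size of its fall uncertain. The fall of Ctla2a did not pass without naive replicate 1 with IL-4 and IL-7 (-2.28, adjusted p = 0.332) or without replicate 1 (-3.27, adjusted p = 0.117) or 2 (-2.50, adjusted p = 0.281) with IL-7. That of Ctla2b did not pass without any 1 of the 4 arrays, with values between -2.04 and -1.50 and adjusted p between 0.0709 and 0.298.

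In memory cells only Ctla2b passed, and only for IL-4 without IL-7. Ctla2b had 6.70 and 6.11 in memory cells with IL-4, against 8.31 and 9.15 in memory cells in medium. It fell by 2.33 (SE 0.36, 5.04-fold, limma adjusted p = 0.00324). The difference was -1.91 (adjusted p = 0.0267) without medium replicate 2 and -2.75 (adjusted p = 0.000423) without medium replicate 1. It was -2.04 and did not pass (adjusted p = 0.0673) without memory IL-4 replicate 2. Ctla2b had 6.94 and 6.53 in memory cells with IL-4 and IL-7, against 8.27 and 7.38 in memory cells with IL-7, a difference of -1.09 that did not pass (adjusted p = 0.173).

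Ctla2a did not pass in memory cells. It had 9.57 and 9.61 with IL-4 and IL-7, against 10.21 and 9.31 with IL-7, a difference of -0.17 (95% interval -1.44 to 1.11). It had 9.48 and 8.96 with IL-4, against 9.34 and 11.78 in medium, where the 2 medium arrays of Ctla2a were further apart than those of any other group. That difference was -1.33 (adjusted p = 0.342), -0.12 (adjusted p = 0.999) without medium replicate 2 and -2.55 (adjusted p = 0.00186) without medium replicate 1. The responses of Ctla2a to IL-4 in memory and naive cells differed by 2.72 (SE 0.84, 95% interval 0.91 to 4.52), which did not pass over all genes (limma adjusted p = 0.342). The test of that difference called 0 of the 10 genes, with 2 at an unadjusted p under 0.05 (Ctla2a and Cst3), against 0.0726% of all genes tested.

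**Figure D2:**
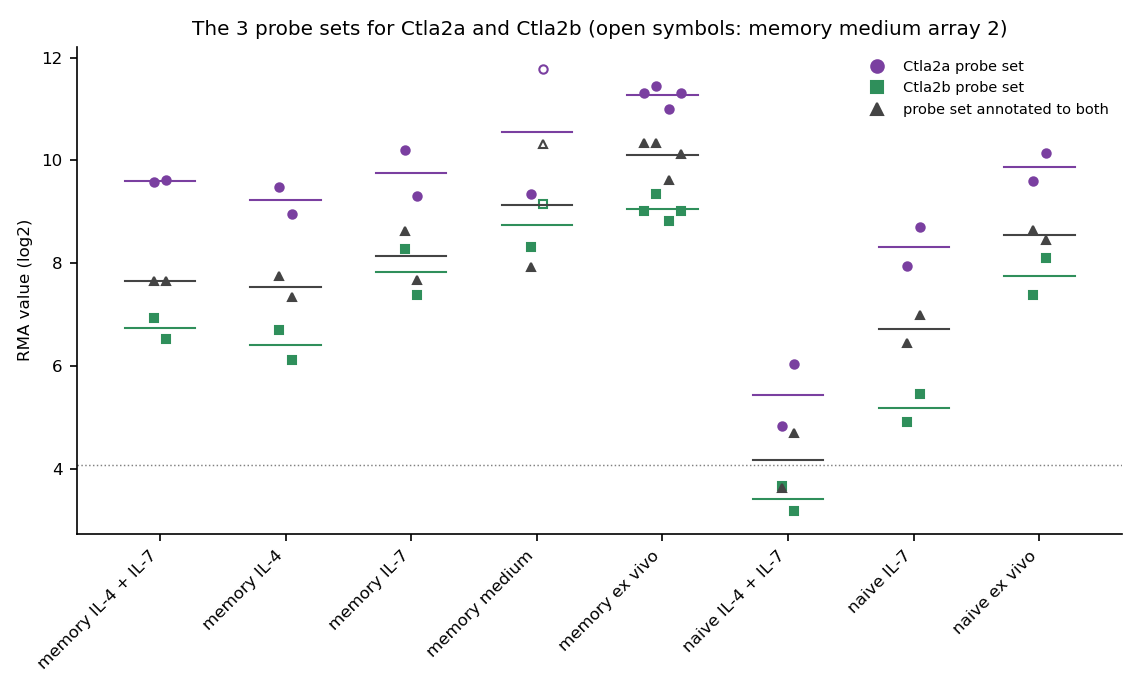
RMA values (log2) of the 3 probe sets for Ctla2a and Ctla2b on every array by group, with a bar at each group mean and a dotted line at the filter value of 4.06. All 3 probe sets were lowest in naive cells with IL-4 and IL-7, and all 3 were higher on the second medium array than on the first.

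Ctla2a and Ctla2b are neighbouring genes on chromosome 13, and how far their own probe sets also bind the transcript of the other gene is not known from these files. The probe set annotated to both had 3.63 and 4.69 in naive cells with IL-4 and IL-7, against 6.45 and 6.99 in naive cells with IL-7. It had 7.75 and 7.34 in memory cells with IL-4, against 7.93 and 10.32 in memory cells in medium. These differences, -2.56 and -1.58, were not tested because probe sets with several symbols were left out of the fit. Over the 8 group means Ctla2a and Ctla2b had a Pearson r of 0.965, which is a description of groups that share the same arrays. The gene most like Ctla2a was Crip1 (r = 0.979), and the gene most like Ctla2b was Cracdl (r = 0.987).

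Cst3 encodes cystatin C, a secreted inhibitor made by most cell types. It did not pass in any comparison. In naive cells with IL-4 and IL-7 its 2 arrays were far apart, at 8.38 and 9.63, against 9.66 and 9.75 in naive cells with IL-7. The difference was -0.70 (limma adjusted p = 0.495). Without naive IL-4 and IL-7 replicate 2 it was -1.33 (adjusted p = 0.00567), so this call rests on which of the 2 arrays is used. The gene most like Cst3 was Selenoh (r = 0.983).

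None of the 6 proteases passed in any of the 3 IL-4 comparisons by limma, and an unadjusted p was under 0.05 for Ctss when IL-4 was added to IL-7 in memory cells and for Ctsb with IL-4 against medium. Adding IL-4 to IL-7 in memory cells called 1 of the 10 genes (Cst7), against 1.81% of all genes tested. IL-4 against medium in memory cells called 2 (Cst7 and Ctla2b), against 1.94%, and IL-4 added to IL-7 in naive cells called 3 (Cst7, Ctla2a and Ctla2b), against 1.26%. The median change over the 10 genes was -0.07, 0.00 and -0.06 in these comparisons, beside 0.08, 0.06 and 0.00 over all genes tested.

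Ctss, an endosomal protease best known for cutting the invariant chain of MHC class II, was the protease with the smallest p when IL-4 was added to IL-7 in memory cells. It had 12.33 and 12.10 there, against 12.69 and 12.80 in memory cells with IL-7. That difference of -0.53 (SE 0.18) did not pass (limma adjusted p = 0.171). Ctsb, a lysosomal cysteine protease, had 10.82 and 10.76 in memory cells with IL-4, against 10.55 and 10.22 in medium, and this difference of 0.41 (SE 0.17) did not pass either (adjusted p = 0.302, and 0.24 with an adjusted p of 0.936 without medium replicate 2). Every other protease difference with IL-4 lay between -0.31 (Ctsl, IL-4 against medium) and 0.36 (Ctsw, IL-4 against medium). Without medium replicate 2 these bounds were -0.39 (Ctsl, adjusted p = 0.942) and 0.74 (Ctsw, adjusted p = 0.391).

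**Figure D3:**
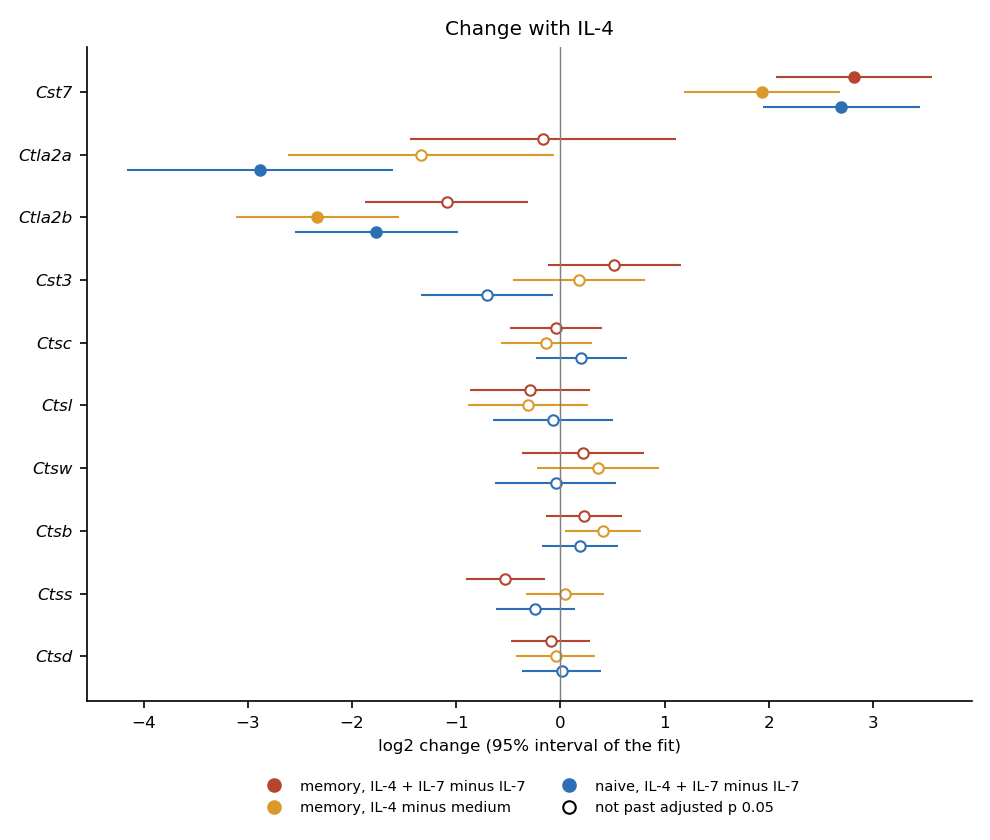
Change in log2 RMA value with IL-4 for each gene, against IL-7 in memory cells (red), against medium in memory cells (yellow) and against IL-7 in naive cells (blue), with 95% intervals of the limma fit. Filled points passed an adjusted p of 0.05. All 3 points of Cst7 and Ctsb lie to the right of 0 and all 3 of Ctla2b, Ctla2a and Ctsl to the left.

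Other genes of the same pathways were counted from lists chosen by function. Of 17 other cathepsins and legumain, 9 were tested and limma called 0 of them in each IL-4 comparison, with 1 (IL-4 added to IL-7, memory), 2 (IL-4 against medium, memory) and 2 (naive) at an unadjusted p under 0.05. Their median change was -0.02, 0.24 and 0.08 in that order. Of 24 other cystatins and serpins, 9 were tested and 0 called in each, with 1, 1 and 4 at an unadjusted p under 0.05 and medians of 0.20, 0.06 and 0.10. Of 35 genes of the lysosome, 30 were tested and 0 called in each, with 4, 6 and 2 at an unadjusted p under 0.05 and medians of 0.05, 0.26 and 0.11. Of the 6 tested genes for granule contents, 1 passed when IL-4 was added to IL-7 in memory cells. Gzma rose by 4.09 (SE 0.64, limma adjusted p = 0.00359), to a mean of 9.39 in memory cells with IL-4 and IL-7 against 5.31 with IL-7. In the other IL-4 comparisons 0 of the 6 passed, with 1 (against medium) and 2 (naive) at an unadjusted p under 0.05. Among the markers of other cells, H2-DMa, an MHC class II chaperone subunit, rose by 3.19, 2.85 and 2.59 in these comparisons (adjusted p at most 1.75e-06). Fcgr3 fell by 1.52 (adjusted p = 0.00438) for IL-4 against medium in memory cells. No other marker of myeloid, dendritic, B, NK or CD4 T cells passed in these comparisons, and the summed linear level of the 10 myeloid markers was 476 to 679 in memory cells with IL-4 and IL-7 against 531 to 554 with IL-7, and 475 to 559 in memory cells with IL-4 against 512 to 624 in medium. In naive cells it was 350 to 434 with IL-4 and IL-7 against 549 to 556 with IL-7. This sum was thus lower without overlap beside the falls of Ctla2a and Ctla2b. Lst1, the brightest of the 10, averaged 7.47 with IL-4 and IL-7 and 8.36 with IL-7. In the same order Csf1r averaged 5.72 and 5.88, and Cd68 5.40 and 5.39. The part of other cells in the Cst7 and Ctla2 changes was not tested.

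No gene of the list passed for IL-7 in memory cells. With IL-7 against medium, limma called 0 of 10, and 0% of all genes tested, with 1 of the 10 at an unadjusted p under 0.05. That gene was Ctla2b (-0.91, adjusted p = 0.723). Cst7 was -0.74 over all arrays and -0.07 without medium replicate 2, and Ctla2a was -0.80 and 0.42. Without medium replicate 1, which leaves the medium array that resembles an ex vivo one, 3 of the 10 passed (Cst7, Ctla2a and Ctla2b, with Ctla2b at -1.33 and an adjusted p of 0.0374), against 16.3% of all genes. Without medium replicate 2, 0 passed, against 0% of all genes, and Ctla2b was -0.49. With IL-7 added to IL-4, limma called 0 of 10, and 0% of all genes, with 0 at an unadjusted p under 0.05. In that comparison the change of Cst7 was 0.14 (SE 0.35) and that of Ctla2b 0.33 (SE 0.36). The IL-4 by IL-7 interaction in memory cells called 0 of 10, against 0% of all genes, with 2 at an unadjusted p under 0.05 (Ctla2b, 1.24, and Ctss, -0.57, both with an adjusted p of 0.838). Without medium replicate 2, Ctla2b was 0.82 and Ctss -0.32. Leaving out that array moved Cst7 from 0.88 to 0.21 and Ctla2a from 1.17 to -0.05. Without medium replicate 1 the test called 3 (Ctss, Cst7 and Ctla2a), against 9.43% of all genes, Ctss with -0.82 and an adjusted p of 0.0477.

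Ctla2b was higher in memory than in naive cells both with IL-7 and with IL-4 and IL-7, and Ctla2a was higher with IL-4 and IL-7. With IL-4 and IL-7, Ctla2a had 9.57 and 9.61 in memory cells against 4.83 and 6.04 in naive cells. Its difference was 4.15 (SE 0.59, 17.8-fold, limma adjusted p = 0.00155). Ctla2b had 6.94 and 6.53 in memory cells against 3.66 and 3.17 in naive cells, a difference of 3.32 (SE 0.36, 10.01-fold, adjusted p = 0.000156) against naive arrays below the filter value. With IL-7, Ctla2b had 8.27 and 7.38 in memory cells against 4.91 and 5.45 in naive cells. It was higher in memory cells by 2.65 (SE 0.36, 6.26-fold, adjusted p = 0.00104). Ctla2a had 10.21 and 9.31 in memory cells with IL-7 against 7.94 and 8.70 in naive cells with IL-7, and its difference of 1.44 did not pass (adjusted p = 0.291).

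Ex vivo, both Ctla2 genes lay higher on every memory array than on every naive array, as 32.7% of all genes tested had groups without overlap, but neither passed. Ctla2a had 11.32, 11.45, 11.00 and 11.31 in memory cells against 9.61 and 10.14 in naive cells, a difference of 1.39 (SE 0.51, limma adjusted p = 0.192). Ctla2b had 9.01, 9.33, 8.81 and 9.02 in memory cells against 7.38 and 8.10 in naive cells, a difference of 1.30 (SE 0.32, adjusted p = 0.0511). Medium replicate 2 is in neither group, but it enters the spread shared by the fit. Without it both passed (Ctla2a adjusted p = 0.0283, Ctla2b adjusted p = 0.0194), and 4.39% of all genes were called in place of 1.93%. With IL-7, Ctla2a passed without that array as well (1.44, adjusted p = 0.044).

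Ctsc, the protease that activates granzymes, was the gene of the list that passed between memory and naive cells ex vivo, where 1 of 10 was called against 1.93% of all genes tested. Ctsc had 11.39, 11.27, 11.45 and 11.35 in memory cells against 12.22 and 12.04 in naive cells. All 4 memory arrays lay below both naive arrays, and 32.7% of all genes tested had groups without overlap here. The memory minus naive difference was -0.76 (SE 0.18, 1.69-fold lower in memory cells, limma adjusted p = 0.0415). Its 2 dim probe sets differed by -1.46 (adjusted p = 0.0044) and -1.76 (adjusted p = 0.0118) in a fit over 24520 probe sets. They averaged 4.19 and 4.55 in memory cells ex vivo, near the filter value of 4.06, so the sizes of these 2 differences are uncertain. The call was lost without any 1 of the 6 arrays, with values between -0.85 and -0.67 and adjusted p between 0.0608 and 0.289. With IL-7 the difference was -0.49 (adjusted p = 0.299), and with both cytokines it was -0.73 (adjusted p = 0.062). In these 2 settings 1 of 10 genes (Ctla2b), against 2.7% of all genes, and 2 of 10 (Ctla2a and Ctla2b), against 3.81%, were called.

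Ctsw, a protease of cytotoxic T and NK cells also called lymphopain, passed in none of the memory against naive comparisons. It had 12.21 and 12.10 in memory cells with IL-4 and IL-7, against 11.51 and 10.76 in naive cells with IL-4 and IL-7, a difference of 1.02 (SE 0.27, limma adjusted p = 0.0524). It passed without medium replicate 2 (adjusted p = 0.0196) and without naive IL-4 and IL-7 replicate 1 (1.40, adjusted p = 0.0277), and it was 0.65 (adjusted p = 0.193) without replicate 2 of that group. The difference was 0.76 (adjusted p = 0.197) with IL-7 and 0.70 (adjusted p = 0.157) ex vivo. Ctsw had 12.42, 12.24, 12.42 and 12.90 in memory cells ex vivo against 11.75 and 11.84 in naive cells ex vivo. The group means of Kcna7 followed those of Ctsw most closely (r = 0.979).

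**Figure D4:**
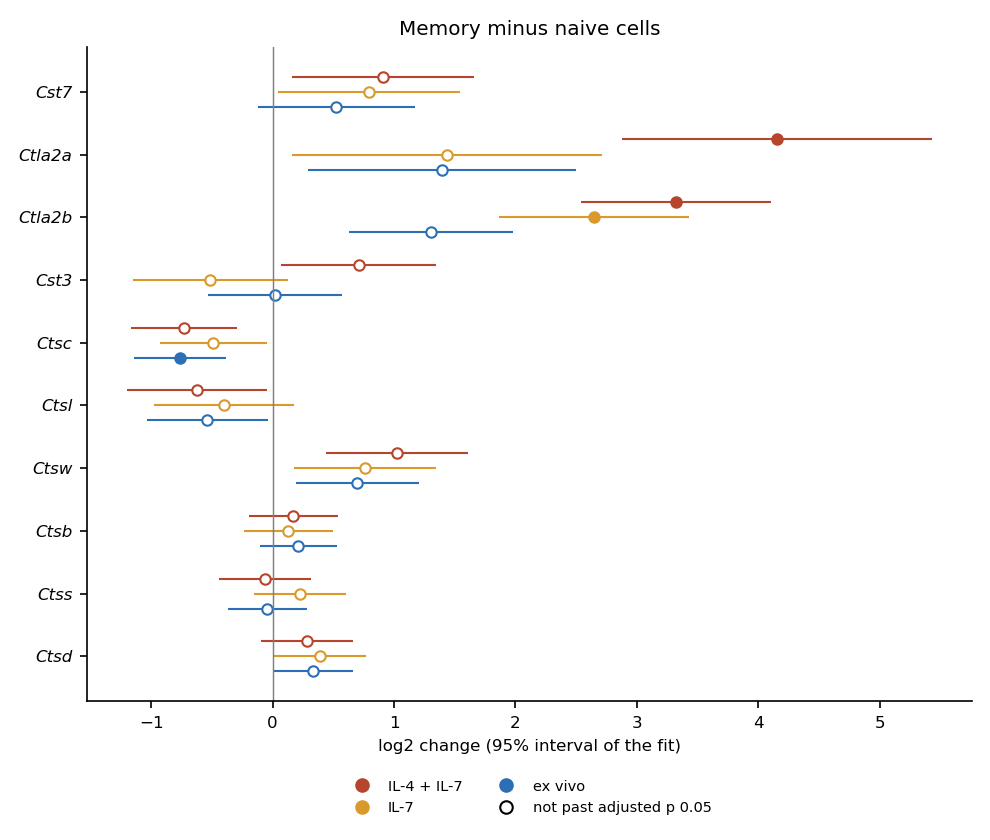
Difference in log2 RMA value of memory minus naive cells for each gene with IL-4 and IL-7, with IL-7 and ex vivo, with 95% intervals of the limma fit. Filled points passed an adjusted p of 0.05. All 3 points of Ctla2a, Ctla2b, Ctsw, Cst7, Ctsd and Ctsb lie to the right of 0 and all 3 of Ctsc and Ctsl to the left.

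None of Ctsl, Ctsd, Cst7 and Cst3 passed between memory and naive cells in the fit over all arrays. Ctsl, a lysosomal protease and the target of Ctla2a, had group means from 9.79 in memory cells with IL-4 and IL-7 to 11.00 in naive cells ex vivo. Its memory minus naive difference was -0.62 (limma adjusted p = 0.19) with both cytokines and -0.54 (adjusted p = 0.256) ex vivo. Ctsd, the aspartic protease among these enzymes, had group means of 11.56 to 11.71 in memory cells and 11.22 to 11.33 in naive cells. Its differences of 0.34 ex vivo and 0.39 with IL-7 did not pass (adjusted p = 0.276 and 0.349). The Cst7 difference was 0.91 with both cytokines (adjusted p = 0.149, and 0.0382 without medium replicate 2) and 0.79 with IL-7 (adjusted p = 0.335). Ctsc also passed with both cytokines without medium replicate 2 (adjusted p = 0.0234) and without naive IL-4 and IL-7 replicate 2 (-0.94, adjusted p = 0.0302). Without that naive array Cst3 passed as well, at 1.34 (adjusted p = 0.00509) against 0.71 (adjusted p = 0.179) with it.

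Of the other cathepsins, Ctsf, a lysosomal cysteine protease, was higher in memory cells by 2.51 (limma adjusted p = 0.0141) with both cytokines, 2.98 (adjusted p = 0.00421) with IL-7 and 2.30 (adjusted p = 0.0105) ex vivo, where it averaged 6.19 in memory cells and 3.89 in naive cells. Ctsf averaged 3.78 and 3.70 in naive cells with both cytokines and with IL-7, so all 3 naive means were below the filter value and the sizes of its differences are uncertain. It passed the filter through memory cells and was the 1 gene of the 9 tested that passed in each of these comparisons. Of the 9 other inhibitors tested, Serpinb6a was higher in memory cells ex vivo by 1.37 (adjusted p = 0.000369) and with IL-7 by 1.14 (adjusted p = 0.00511). Serpinb1a was higher ex vivo by 1.43 (adjusted p = 0.0415) and with both cytokines by 1.54 (adjusted p = 0.0403). Ms4a1, a B cell marker, was 1.55 higher in memory cells ex vivo (adjusted p = 0.0415), at a mean of 4.85 against 3.30 in naive cells. That naive mean was below the filter value, so the size of the Ms4a1 difference is uncertain. With both cytokines Gzmk, which encodes granzyme K, was 2.00 higher in memory cells (adjusted p = 0.0476) as 1 of 6 granule genes, and Mitf, a transcription factor related to the lysosomal regulator Tfeb, was 1.15 higher (adjusted p = 0.0438) as 1 of 30 lysosomal genes. The summed linear level of the 6 B cell markers, most of it Ighm, was 3023 to 4236 in memory cells ex vivo and 3092 to 3997 in naive cells ex vivo. Since Ighm makes up most of it, this sum says little of the other B cell markers. Of the 6 tested, 1 passed by limma and 3 had an unadjusted p under 0.05, with a median difference of 0.59. Of the 9 myeloid markers tested, 0 passed and 4 had an unadjusted p under 0.05, with a median difference of 0.36. Of the 8 dendritic and MHC class II markers tested, 0 passed by limma and 5 had an unadjusted p under 0.05, with a median difference of 0.54. The summed level of the 9 on the array was 1485 to 2293 in memory cells ex vivo and 1188 to 1207 in naive cells ex vivo, groups that did not overlap. Mean levels were 6.26 and 4.12 for H2-Aa, 8.04 and 6.50 for Cd74 and 5.50 and 4.15 for the myeloid marker Tyrobp in memory and naive cells ex vivo. The part of other cells in the ex vivo differences was not tested.

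Culture for 20 hours with IL-7 lowered Cst7, Ctsc and Ctla2b in both memory and naive cells relative to cells taken ex vivo. In memory cells 3 of 10 genes passed, against 19.9% of all genes tested, and in naive cells the same 3 of 10 passed, against 12.8%. The median change over the 10 genes was -0.47 in memory cells and -0.57 in naive cells, beside -0.05 and 0.07 over all genes. Cst7 had 9.18 and 9.35 in memory cells with IL-7, against 10.73 to 11.14 in memory cells ex vivo, and fell by 1.71 (SE 0.30, 3.26-fold, limma adjusted p = 0.005). It had 8.31 and 8.62 in naive cells with IL-7, against 10.63 and 10.25 in naive cells ex vivo, and fell by 1.97 (SE 0.35, 3.93-fold, adjusted p = 0.00433). In neither cell type did the groups overlap, which held for 50.8% of all genes in memory cells and 58% in naive cells.

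Ctsc had 10.66 and 10.69 in memory cells with IL-7, against 11.27 to 11.45 in memory cells ex vivo. It fell by 0.69 (SE 0.18, limma adjusted p = 0.0169) in memory cells. Its 2 dim probe sets did not pass there, at -0.01 (adjusted p = 0.985) and 0.20 (adjusted p = 0.694), and the mean of its probe sets gave -0.17 (adjusted p = 0.532). In memory cells the 2 dim probe sets averaged 4.19 and 4.55 ex vivo and 4.18 and 4.76 with IL-7. These levels are near the filter value of 4.06, where a fall could hardly show, so the 2 probe sets cannot decide whether Ctsc fell. Ctsc had 11.33 and 11.00 in naive cells with IL-7, against 12.22 and 12.04 in naive cells ex vivo, and fell by 0.96 (SE 0.20, adjusted p = 0.0101). The group means of Fastkd3 followed those of Ctsc most closely (r = 0.994). Within the list, Ctsc and Ctsl had a Pearson r of 0.954 over the 8 group means.

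Ctla2b had 8.27 and 7.38 in memory cells with IL-7, against 8.81 to 9.33 in memory cells ex vivo, and fell by 1.22 (SE 0.32, limma adjusted p = 0.0176). It had 4.91 and 5.45 in naive cells with IL-7, against 7.38 and 8.10 in naive cells ex vivo, and fell by 2.56 (SE 0.36, 5.90-fold, adjusted p = 0.00155). The falls in memory and naive cells differed by 1.34 (adjusted p = 0.346). No gene of the list passed the test of that difference, against 0.0508% of all genes, and 1 of 10 had an unadjusted p under 0.05. The same naive cells with IL-7 served as the comparison group for IL-4, so the further fall of Ctla2b with IL-4 is measured against values used here. For Ctla2a the difference was -1.51 (adjusted p = 0.0529) in memory cells and -1.55 (adjusted p = 0.103) in naive cells. Without medium replicate 2 both passed, with adjusted p of 0.00349 and 0.0099.

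The 3 calls in memory cells with IL-7 were lost when either memory IL-7 array was left out. Without replicate 1, Cst7 was -1.62 (limma adjusted p = 0.0631), Ctsc -0.67 (adjusted p = 0.122) and Ctla2b -1.67 (adjusted p = 0.0569). Without replicate 2, they were -1.79 (adjusted p = 0.0659), -0.71 (adjusted p = 0.107) and -0.77 (adjusted p = 0.235). In naive cells Ctsc did not pass without ex vivo replicate 1 (-0.87, adjusted p = 0.0632) or without IL-7 replicate 2 (-0.79, adjusted p = 0.117), whereas Cst7 and Ctla2b passed whichever array was left out.

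For memory cells in medium against ex vivo, limma called 0 of 10 genes, and 0% of all genes tested, with 3 of the 10 at an unadjusted p under 0.05. Over all arrays the changes were -0.97 for Cst7, -0.71 for Ctla2a, -0.71 for Ctsw and -0.39 for Ctsc. The 2 medium arrays lay far apart, with Cst7 at 9.33 and 10.67, Ctla2a at 9.34 and 11.78 and Ctsw at 11.40 and 12.17, and in each the second array was near the ex vivo values. Without medium replicate 2, 4 of the 10 passed, against 16.4% of all genes. Those were Cst7 (-1.64, adjusted p = 0.00114), Ctla2a (-1.93, adjusted p = 0.0065), Ctsw (-1.09, adjusted p = 0.0108) and Ctsc (-0.69, adjusted p = 0.0262).

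**Figure D5:**
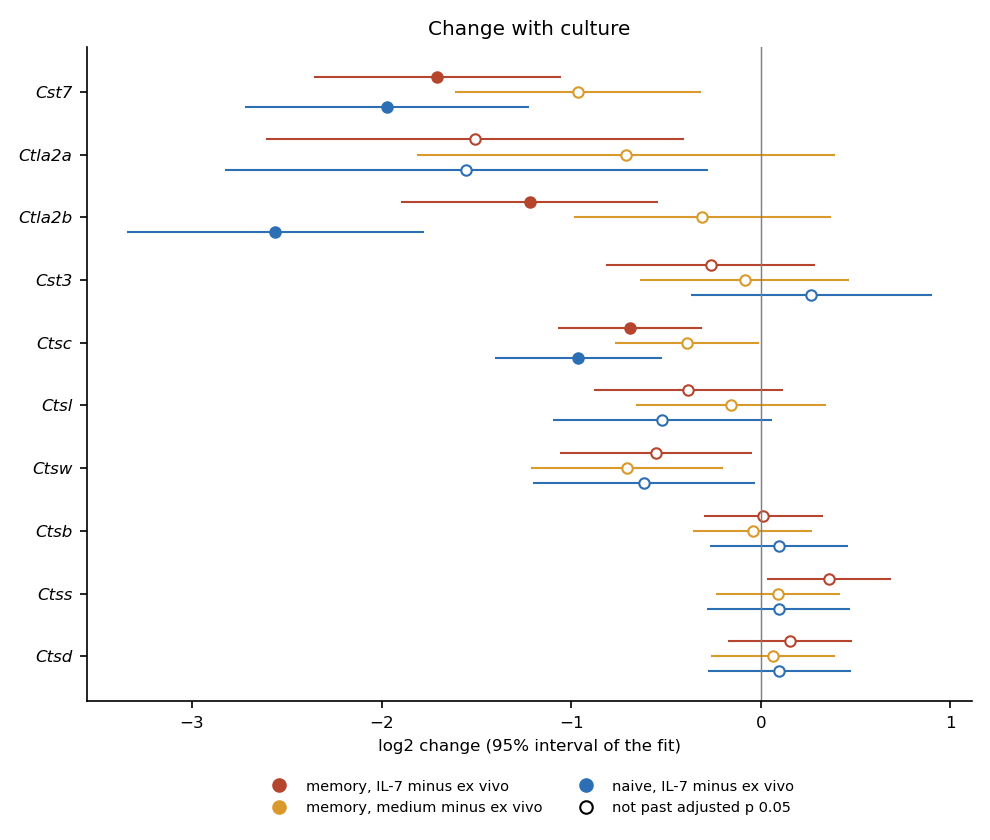
Change in log2 RMA value with culture for each gene, in memory cells with IL-7, memory cells in medium and naive cells with IL-7, each relative to cells ex vivo, with 95% intervals of the limma fit. Filled points passed an adjusted p of 0.05. All 3 points of Cst7, Ctla2a, Ctla2b, Ctsc, Ctsl and Ctsw lie to the left of 0.

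Some granule genes fell after culture with IL-7 too, in comparisons where 19.9% of all genes tested passed in memory cells and 12.8% in naive cells. In memory cells 4 of 6 tested passed, with Gzma lower by -3.10 (limma adjusted p = 0.00505), Gzmm by -1.49 (adjusted p = 0.00765) and Gzmb by -2.83 (adjusted p = 0.00836). In naive cells 2 of 6 passed, Srgn with -1.27 (adjusted p = 0.00258) and Gzma with -2.53 (adjusted p = 0.0215). Of the other cathepsins Ctsk alone passed, with -0.62 (adjusted p = 0.0439) in memory cells and -1.45 (adjusted p = 0.00295) in naive cells. Of the other inhibitors 3 of 9 passed in memory cells, Serpinb6b (-1.08, adjusted p = 0.0195), Cstb (-0.93, adjusted p = 0.026) and Serpinb9 (-0.66, adjusted p = 0.0377), and 0 of 9 in naive cells. Of 30 lysosomal genes, 3 were higher and 2 lower in memory cells with IL-7, among them Gusb (1.19, adjusted p = 0.0272) and Galns (-0.64, adjusted p = 0.0306), and in naive cells 1 passed, Grn (1.43, adjusted p = 0.0482).

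Markers of other cells moved with culture too. In memory cells Cd68 (-1.16, limma adjusted p = 0.0157), Tyrobp (-1.24, adjusted p = 0.0249), H2-Aa (-2.63, adjusted p = 0.0327) and Ms4a1 (-1.43, adjusted p = 0.0161) were lower with IL-7 than ex vivo, and Ighm was higher (0.90, adjusted p = 0.0292). In naive cells Fcgr3 was lower (-0.99, adjusted p = 0.0214) and H2-DMa higher (0.77, adjusted p = 0.0155) with IL-7 than ex vivo. The summed linear level of the 10 myeloid markers was 531 to 554 in memory cells with IL-7 and 488 to 716 ex vivo, and that of the 9 dendritic and MHC class II markers was 1319 to 1583 with IL-7 and 1485 to 2293 ex vivo. In naive cells both sums were higher with IL-7, without overlap. The myeloid sum was 549 to 556 with IL-7 and 346 to 497 ex vivo there. The dendritic and MHC class II sum was 1698 to 2253 with IL-7 and 1188 to 1207 ex vivo. The 3' minus 5' difference of the Gapdh control probes was 2.67 to 3.36 on the cultured arrays other than medium replicate 2, on which it was 2.35, and 2.07 to 2.69 on the ex vivo arrays. That of Actb was 1.63 and 1.64 in naive cells with IL-7, 1.86 to 2.25 on the other cultured arrays and 1.95 to 2.07 on the ex vivo arrays. The part of these markers and of RNA quality in the culture differences was not tested.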

How the data were processed

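Amplified RNA carried a biotin label from in vitro transcription, per the labels' protocols. The authors deposited log2 values per probe set and array, and RMA and limma are named without versions, per the submitters' processing notes. Array medians ran from 4.62 to 4.76. Precision is limited by the small number of arrays. The table held 45101 probe sets, and GEO's platform annotation gave 34958 of them 1 gene symbol, 932 several and 9211 none. Of these, 34754 matched the RefSeq genes of assembly GRCm38.p6, and 0 symbols changed. Tested genes exceeded the 40th percentile of the table (4.06) on 2 or more arrays, which kept 13770 of 18194 genes. Contrasts of the 8 group means over all 18 arrays were fitted with limma 3.58.1 in R 4.3.3 (lmFit and eBayes, two-sided, 10 residual and 4.13 prior degrees of freedom), tested on simulated data first. Summed marker levels are sums of 2 to the power of the log2 value. Every member was named, with the 1 gene most like it by Pearson r over the 8 group means, and from each other list up to 3 genes with the smallest adjusted p among those called. The members and lists were chosen with earlier results of these data known. The alternatives were other filters, other ways to choose a probe set, median scaling, another variance model, a fit on the compared groups alone, a replicate block and leaving out single arrays. Arrays were not paired by replicate number, since the labels give these numbers no meaning.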

Additional observations from a re-analysis of the deposited data

Results flagged for a closer look

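Of the 10 genes in the 1 group of 4 arrays, 1 had an array far from the others. Cst3 was 9.27 on ex vivo memory replicate 4, and the other 3 arrays of that group were at 9.51 to 9.55, so the gap took up 0.858 of the range of the group. This test marks about 1 in 20 groups by chance, and 10 were looked at.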

How the results depend on the processing

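The 16 gene results that passed were recomputed under 210 alternatives in all, of which 175 left them past the threshold, 35 took them off it and 0 changed their direction. The rise of Cst7 when IL-4 was added to IL-7 in memory cells passed under each of its alternatives, and so did the higher Ctla2a and Ctla2b of memory cells with both cytokines, the higher Ctla2b of memory cells with IL-7, and the fall of Cst7 and Ctla2b in naive cells with IL-7 against ex vivo. Of 34 further results with an unadjusted p under 0.05, 20 passed under some alternative. Of 109 counts of members called, other than those without single arrays, 98 stayed within 1.5 times. Many of these come from comparisons such as IL-7 against medium, where 0 members were called in the main fit and under each such alternative. The figure therefore says little of how steady the other counts are. Fitting only the compared groups, which leaves few arrays for the spread, called 2 members in place of 1 for IL-4 added to IL-7 in memory cells, 0 in place of 2 for IL-4 against medium, 0 in place of 3 for IL-4 in naive cells, 3 in place of 1 between memory and naive cells ex vivo and 4 in place of 1 between them with IL-7. Between memory and naive cells ex vivo the count was also 0 with every probe set tested, and 2 with the mean of a gene's probe sets, with the stricter filter and with a variance trend and robust fit, and the cause was not tested. The labels give no meaning to the replicate numbers. Deviations of same-numbered arrays correlated at 0.511 between the cultured naive groups and at 0.251 to 0.447 among memory cells with cytokines, and at -0.125 to 0.328 in the other pairs of groups. The replicate block called 1 in place of 3 for IL-4 in naive cells, where Ctla2a (adjusted p = 0.0633) and Ctla2b (adjusted p = 0.0875) no longer passed, and 1 in place of 3 for memory cells with IL-7 against ex vivo, where Ctsc (adjusted p = 0.0602) and Ctla2b (adjusted p = 0.0588) no longer passed. It was not run for memory against naive cells because the numbers lie within each cell type. With the mean of its probe sets, Ctsc in memory against naive cells with IL-7 turned to 0.025 (adjusted p = 0.981), an average that includes its 2 dim probe sets.

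Leaving out 1 array gave 1 to 1 members for IL-4 added to IL-7 in memory cells, 0 to 3 for IL-4 against medium, 1 to 3 for IL-4 in naive cells, 0 to 3 for IL-7 against medium and 0 to 0 for IL-7 added to IL-4. It gave 0 to 3 for memory against naive cells ex vivo, 1 to 2 with IL-7 and 2 to 5 with both cytokines. It gave 0 to 4 for memory in medium against ex vivo, 0 to 4 for memory with IL-7 and 2 to 4 for naive with IL-7. For the differences of responses it gave 0 to 1 for IL-4 in memory against naive cells, 0 to 3 for IL-4 by IL-7 and 0 to 0 for culture. The 1 member called for IL-4 in memory against naive cells was Cst3 (1.85, adjusted p = 0.0104), without naive IL-4 and IL-7 replicate 2. Values of Ctla2b under the filter value of 4.06 have no measured background, which limits the size of its differences in naive cells with IL-4.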
